A study of Homo sapiens with 4 samples.

Results

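Cells answer a shortage of oxygen through the hypoxia-inducible factors, whose alpha subunits HIF1A and EPAS1 are destroyed when oxygen is plentiful. The prolyl hydroxylases EGLN1 and EGLN3 mark the alpha subunits for that destruction, so the factors are controlled largely at the level of protein stability. The stabilised factors raise genes of glucose uptake, glycolysis, lactate formation, pH control and mitophagy, a programme that glioblastoma cells are known to use. The genes described here are 36 members of that programme, chosen by name: the factors and their hydroxylases, well-known targets, and the glycolytic enzymes with their regulators. They were chosen with earlier results of these data known, so shares over all genes set beside them are not an independent comparison. Each gene was read from its brightest probe set among those annotated to 1 gene, and 34 of the 36 had one, out of 19775 genes on the array. CA9 and SLC16A3, which encode a carbonic anhydrase and a lactate exporter, had no such probe set named in the annotation used and were not analysed here.

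U87TR-Da cells, derived from the glioblastoma line U87MG, were studied with DACH1, a nuclear factor known to repress transcription, either induced or silenced. Single arrays covered 4 conditions: induced and silenced cells in a serum-free medium, Neurobasal to which N-2 and B-27 supplements and the growth factors bFGF and EGF were added, and induced and silenced cells in DMEM holding 10% FBS. Doxycycline at 1 µg/mL over 72 h is given for all 4 samples, silenced ones too, and neither the means of silencing nor the clonality of the line is stated. There were no replicates, and 4 arrays set the precision. Values are MAS5 signals, a linear brightness per probe set in arbitrary units, and signals under 10.9 were treated as lying at a floor. Levels of different genes were not set against each other, because probe sets differ in their response.

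DACH1 itself read 875.1 on the induced and 32.5 on the silenced array labelled serum-free, and 4431 on the induced and 126 on the silenced array labelled serum, so both induced arrays stood above both silenced ones. Among 9 glioma and astrocyte markers, VIM and CD44 read 4214 or more on every array, while GFAP, S100B, AQP4 and SOX2 lay under the floor on all 4. OLIG2, a marker of the oligodendrocyte lineage in the same list, fell: it read 12.3 and 12.2 in induced and silenced cells labelled serum-free, against 79.9 and 58.4 in induced and silenced cells labelled serum (limma adjusted p 0.017). SLC1A3, a glutamate transporter gene, read 12.8 in induced and 135 in silenced cells labelled serum, and NES stayed under 50. The 9 measured markers of leukocytes, endothelium, epithelium and neurons stayed under 50 throughout, with summed signals of 77.7 and 117.7 on the arrays labelled serum-free and 68.6 and 84.8 on those labelled serum. Several genes that serum is known to raise went against the medium labels: 7 of 10 contractile serum response genes rose in the arrays labelled serum-free by limma and 1, SRF, fell. The immediate early genes did not, since 5 of 8 fell and 0 rose. All 18 genes of G2 and M phase rose. Of 13 cholesterol synthesis genes 1 rose and 0 fell, and 1 of 8 housekeeping genes rose. Of all genes in the fit, 15.4% rose and 12.7% fell. The media are therefore named as labelled, and the part of cell division and of the medium labels in the differences given here was not tested. RNA was from whole cultures, so fewer cells of a type and less RNA per cell cannot be told apart.

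These genes moved between the media. In the arrays labelled serum-free the regulators of glycolytic flux, the glucose transporter gene SLC2A1, the hydroxylase genes EGLN1 and EGLN3, the mitophagy receptor genes and most enzymes stood higher in both DACH1 states. The genes of the factors themselves, HIF1A and EPAS1, did not pass the test. In a limma fit over 12103 genes with medium and DACH1 state as terms, 20 of the 34 genes rose in the arrays labelled serum-free at an adjusted p under 0.05 and 0 fell, nor was any lower at an unadjusted p under 0.05, against 15.4% of all genes that rose and 12.7% that fell. Their median coefficient was 1.17 on the log2 scale, against 0.02 over all genes. The fit leaves 1 residual degree of freedom per gene, which reflects how far the medium difference varied between the DACH1 states. The error of each gene is drawn from that toward a variance shared over all genes in the fit. The shared variance counts as 2.93 degrees of freedom, so SEs and p-values rest largely on it and depend on which genes enter. The p-values say nothing of the spread over cultures.

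Promoters of the genes that rose most are shown, so that the letters hypoxia-inducible factors are known to bind can be looked for directly. The windows are the 250 bases before the start of the RefSeq transcript (GRCh38.p14), written 5′ to 3′ on the gene's strand. Capitals mark every ACGTG or GCGTG and their reverse complements CACGT and CACGC, the core letters of the hypoxia response element. The first 4 are the genes with the largest medium coefficients among those with a window, and EPAS1 is shown beside them as a gene that was not called. Where RefSeq lists several starts, the window with the most matches is given.
PFKFB4 (chr3:48556804-48557053, minus strand): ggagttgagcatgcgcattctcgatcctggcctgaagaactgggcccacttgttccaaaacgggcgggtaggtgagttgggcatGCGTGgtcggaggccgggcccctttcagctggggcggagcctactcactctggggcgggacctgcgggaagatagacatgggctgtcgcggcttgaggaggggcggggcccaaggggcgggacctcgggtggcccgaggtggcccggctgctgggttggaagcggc
SLC2A1 (chr1:42958869-42959118, minus strand): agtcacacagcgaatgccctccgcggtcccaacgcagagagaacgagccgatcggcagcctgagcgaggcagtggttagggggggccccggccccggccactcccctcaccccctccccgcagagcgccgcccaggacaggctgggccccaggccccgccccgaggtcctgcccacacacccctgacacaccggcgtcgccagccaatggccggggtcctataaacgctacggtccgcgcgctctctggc
PDK1 (chr2:172555840-172556089, plus strand): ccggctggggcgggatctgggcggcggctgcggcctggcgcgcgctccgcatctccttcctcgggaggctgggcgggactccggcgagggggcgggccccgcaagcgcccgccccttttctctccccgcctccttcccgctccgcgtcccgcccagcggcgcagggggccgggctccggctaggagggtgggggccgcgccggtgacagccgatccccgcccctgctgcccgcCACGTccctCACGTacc
ANKRD37 (chr4:185396591-185396840, plus strand): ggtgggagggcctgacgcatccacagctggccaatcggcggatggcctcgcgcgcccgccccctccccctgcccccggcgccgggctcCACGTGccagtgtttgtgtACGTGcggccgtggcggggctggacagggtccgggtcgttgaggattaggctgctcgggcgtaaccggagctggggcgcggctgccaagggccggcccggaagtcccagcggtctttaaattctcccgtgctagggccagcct
EPAS1 (chr2:46297157-46297406, plus strand): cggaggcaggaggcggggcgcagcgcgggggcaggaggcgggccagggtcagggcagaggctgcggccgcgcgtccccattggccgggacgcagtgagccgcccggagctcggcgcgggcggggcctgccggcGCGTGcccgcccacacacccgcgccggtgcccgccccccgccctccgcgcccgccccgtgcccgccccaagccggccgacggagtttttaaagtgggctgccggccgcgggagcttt

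In these windows PFKFB4 held 1 match, PDK1 2, ANKRD37 3, of which 2 overlap in the palindrome CACGTG, and SLC2A1 0, while EPAS1, which was not called, held 1. The letters are common in promoters. Of all 35116 windows of this length, 43.2% held at least 1 match, against 59.6% of the 57 windows of the genes described here, whose median GC content was 68.4% against 58% over all windows. Counted by gene, 14 of 18 genes that rose and 12 of 13 that were not called had a match in some window, against 47.4% of all genes with a window. A gene with more windows has more room for a match, and these 31 genes had 57 windows, where all 27305 genes had 35116. NDRG1, BNIP3L and SLC2A3 had no window in the table used. A match is a string of letters only, and no binding was measured.

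**Figure D1:**
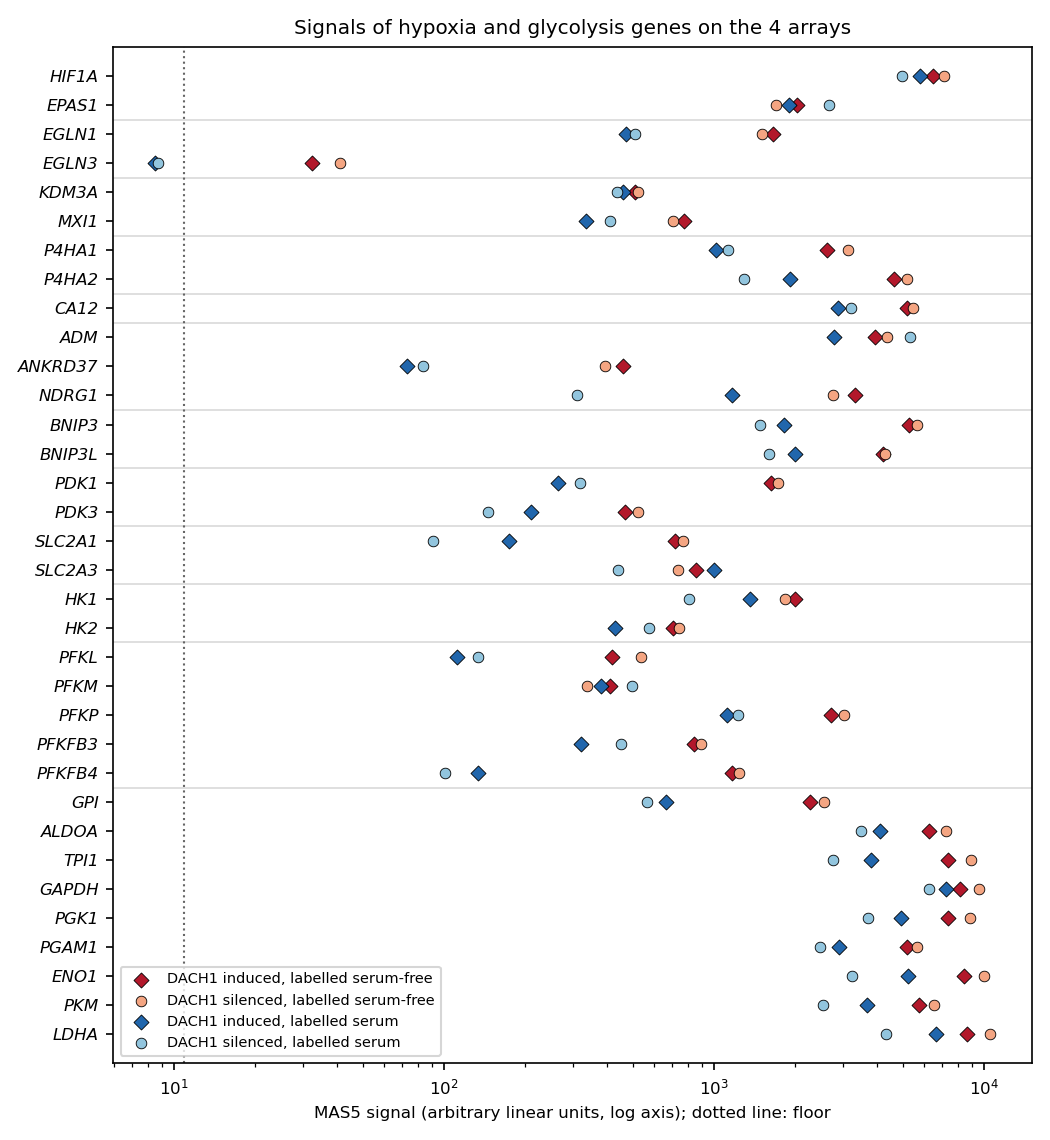
MAS5 signal (log axis, arbitrary units) of the 34 genes on each array, 1 point per array: diamonds for DACH1-induced and circles for DACH1-silenced cells, red for arrays labelled serum-free and blue for arrays labelled serum. For 30 of the 34 genes both red points lie to the right of both blue points, as they do for 37.4% of all genes in the fit, against 35.4% with both to the left.

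The alpha subunits come first in the pathway. HIF1A read 6444 in induced and 7126 in silenced cells labelled serum-free, against 5800 in induced and 4983 in silenced cells labelled serum, a limma coefficient of 0.33 (SE 0.20, adjusted p 0.265). EPAS1 read 2021 and 1695 in induced and silenced cells labelled serum-free, against 1886 and 2659 in induced and silenced cells labelled serum (coefficient -0.28, SE 0.26, adjusted p 0.461). The EPAS1 groups overlapped, and neither gene passed the test. A second measured probe set of EPAS1 had the same signs in both pairs.

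The hydroxylases that act on the factors, and are themselves known as their targets, did rise. EGLN1 read 1653 in induced and 1499 in silenced cells labelled serum-free, against 472 and 510.8 in induced and silenced cells labelled serum, 3.21-fold higher (log2 1.68, SE 0.19, limma adjusted p 0.0197). All 4 of its probe sets were higher in both pairs, between 1.42 and 2.25 on the log2 scale. EGLN3 read 32.3 and 41.1 in induced and silenced cells labelled serum-free but lay under the floor in both arrays labelled serum, so it was at least 2.96-fold higher in induced and at least 3.77-fold higher in silenced cells. EGLN3 was the one gene of the 34 with arrays under the floor, and its limma adjusted p was 0.02, or 0.0354 with no floor. EGLN3 left the fit when every array had to reach the median signal, or with a floor of 50 and 2 arrays at 100.

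Targets outside glycolysis were mostly higher too. ANKRD37, a small ankyrin repeat gene known as a hypoxia target, read 458.3 and 393.4 in induced and silenced cells labelled serum-free, against 73 and 83.5 in induced and silenced cells labelled serum, a 5.44-fold rise (log2 2.44, SE 0.21, limma adjusted p 0.017). NDRG1, a stress-responsive gene, read 3313 and 2754 in induced and silenced cells labelled serum-free, against 1168 and 311.9 in induced and silenced cells labelled serum. Its arrays did not overlap between the media, but its silenced array labelled serum stood far below the induced one, and the SE of its coefficient (2.32, SE 0.45, adjusted p 0.0355) was the largest among the 34 genes. The NDRG1 call was lost with no floor (limma adjusted p 0.0585). ADM, which encodes the vasodilator peptide adrenomedullin, went its own way: it read 3941 and 4350 in induced and silenced cells labelled serum-free, between 2786 in induced and 5324 in silenced cells labelled serum (adjusted p 0.79). CA12, a membrane carbonic anhydrase gene, rose 1.75-fold (log2 0.81, SE 0.18, limma adjusted p 0.044), a call lost with quantile normalization (adjusted p 0.0778), with median scaling (0.0713), with no floor (0.0612) and with the mean of all probe sets (0.0533).

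The mitophagy receptor genes BNIP3 and BNIP3L rose 3.31-fold and 2.39-fold (limma adjusted p 0.0203 and 0.0271). BNIP3 read 5253 and 5627 in induced and silenced cells labelled serum-free, against 1819 and 1482 in induced and silenced cells labelled serum, and its other probe set gave larger differences, 2.15 in induced and 2.93 in silenced cells on the log2 scale. The collagen prolyl hydroxylase genes P4HA1 and P4HA2, whose enzymes act on collagen chains and not on the factors, rose 2.68-fold and 3.13-fold (adjusted p 0.0212 and 0.0268). Chromatin and MYC-related members were weaker. MXI1, a gene for an antagonist of MYC, rose by 1.00 on the log2 scale (SE 0.21, limma adjusted p 0.0402), a call lost with median scaling (adjusted p 0.058) and with no floor (0.0598). KDM3A, a histone demethylase gene, read between 436.2 and 522.1 on all 4 arrays, with a coefficient of 0.21 and an adjusted p of 0.423.

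**Figure D2:**
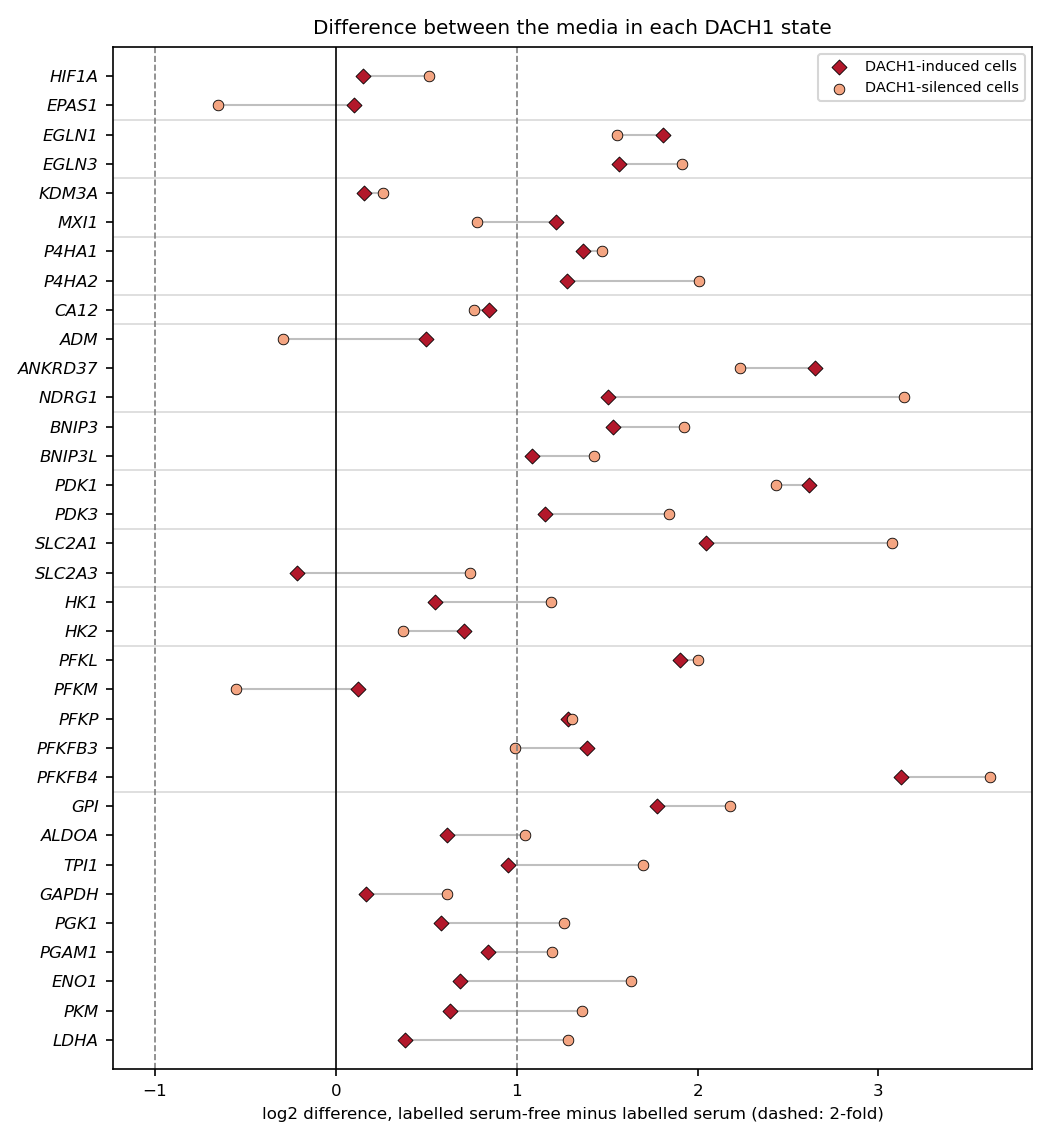
Log2 difference between the media, labelled serum-free minus labelled serum, for each gene in DACH1-induced (diamonds) and DACH1-silenced cells (circles), with 2-fold marked by dashed lines. NDRG1 lies at 1.50 in induced and 3.14 in silenced cells, PDK1 at 2.62 and 2.44, and EPAS1, PFKM, ADM and SLC2A3 have points on both sides of 0.

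Glucose enters glioblastoma cells mainly through SLC2A1 and SLC2A3, and their genes differed. SLC2A1 read 716.5 and 767.6 in induced and silenced cells labelled serum-free, against 173.3 and 91.1 in induced and silenced cells labelled serum, a 5.90-fold rise (log2 2.56, SE 0.31, limma adjusted p 0.0208). SLC2A3 read 860.1 and 736.8 in induced and silenced cells labelled serum-free, against 999.1 and 440.8 in induced and silenced cells labelled serum, so its arrays overlapped (coefficient 0.26, SE 0.30, adjusted p 0.542). The hexokinase genes, for the step that traps glucose in the cell, missed the threshold: HK1 had a coefficient of 0.87 (adjusted p 0.0657) and HK2 of 0.54 (adjusted p 0.113).

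The control points of glycolysis held the largest difference. PFKFB4, a gene for an enzyme that makes the main activator of phosphofructokinase, read 1165 and 1235 in induced and silenced cells labelled serum-free, against 133.6 and 100.6 in induced and silenced cells labelled serum. That is a 10.3-fold rise (log2 3.37, SE 0.22, limma adjusted p 0.0167), and its other probe set was higher in both pairs too, but its signals labelled serum were below the floor, so that difference has only a lower bound. PFKFB3, for a related enzyme, rose 2.28-fold (842.9 and 897.7 in induced and silenced cells labelled serum-free, 322.5 and 451.7 in induced and silenced cells labelled serum, adjusted p 0.0302). The phosphofructokinase subunit genes did not move as a group. PFKL, the liver type, rose 3.87-fold (adjusted p 0.0172) and PFKP, the platelet type, 2.45-fold (adjusted p 0.0227), whereas PFKM, the muscle type, read 413.2 and 337.9 in induced and silenced cells labelled serum-free, against 379.9 and 495.7 in induced and silenced cells labelled serum (coefficient -0.22, adjusted p 0.54).

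Pyruvate dehydrogenase kinases hold pyruvate back from oxidation in the mitochondria. PDK1 read 1628 and 1717 in induced and silenced cells labelled serum-free, against 265.2 and 317.5 in induced and silenced cells labelled serum, a 5.76-fold rise (log2 2.53, SE 0.18, limma adjusted p 0.0167). PDK3 rose 2.83-fold (adjusted p 0.0287). By brightest probe set, both arrays labelled serum-free lay above both labelled serum for either gene, as for 37.4% of all genes in the fit. A dim probe set of PDK3 did overlap, at 30.7 in silenced cells labelled serum-free against 36.3 in silenced cells labelled serum. PDK2, a related kinase gene named here after its values were seen, read between 92.1 and 102.5 on all 4 arrays.

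Of the 9 remaining glycolytic enzyme genes, 3 passed the test, and all 3 rose. GPI, for the isomerase that follows hexokinase, read 2265 and 2548 in induced and silenced cells labelled serum-free, against 662 and 563 in induced and silenced cells labelled serum, a 3.94-fold rise (log2 1.98, SE 0.20, limma adjusted p 0.0188). TPI1, the triosephosphate isomerase gene, rose 2.51-fold (adjusted p 0.0356), and PGAM1, a phosphoglycerate mutase gene, 2.03-fold (adjusted p 0.0355). The other 6, ALDOA, GAPDH, PGK1, ENO1, PKM and LDHA, had coefficients between 0.39 and 1.16 with adjusted p between 0.0554 and 0.224. All 9 had both arrays labelled serum-free above both arrays labelled serum, as had 60.9% of all genes with a signal of 4000 or more on an array, which 8 of the 9 reach. LDHA, for the enzyme that turns pyruvate into lactate, read 8634 and 10535 in induced and silenced cells labelled serum-free, against 6630 and 4332 in induced and silenced cells labelled serum. GAPDH, often used as a control gene, read 8109 and 9603 in induced and silenced cells labelled serum-free, against 7213 and 6274 in induced and silenced cells labelled serum, the smallest coefficient of the 9.

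How many of these enzyme genes were called depended on the settings of the fit. TPI1 and PGAM1 were lost with no floor (limma adjusted p 0.0563 and 0.0538), and TPI1 also without _x_at and _s_at probe sets (0.0521). ALDOA, ENO1, PGK1 and PKM passed, with HK1, under a pseudocount in place of the floor, with every array required to reach the median signal, and with a floor of 50 and 2 arrays at 100. With a trend in the variance prior LDHA passed as well (adjusted p 0.0498), and 26 genes were called higher, as were 17.9% of all genes. With no filter on low signals 0 of the 34 genes were called, as 0 of all genes were, although 26, all higher, had an unadjusted p under 0.05 in the filtered limma fit, as had 24.0% of all genes in the higher direction.

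Counted without a test, 17 of 34 genes were at least 2-fold higher with the medium labelled serum-free in induced cells, and 23 of 34 in silenced cells. None was 2-fold lower in either pair. Of all genes compared, 14.0% were 2-fold higher and 10.1% lower in induced cells, and 15.3% and 12.2% in silenced cells. Among genes with a signal of 200 or more on an array, which 33 of the 34 were, 13.7% were higher and 11.8% lower in induced cells, and 14.9% and 14.8% in silenced cells. The 2 pairs have no array in common. In both, 15 genes were 2-fold higher and 0 lower, where 9.25% of all genes in the fit were higher and 6.87% lower in both. The 15 were EGLN1, EGLN3, P4HA1, P4HA2, ANKRD37, NDRG1, BNIP3, BNIP3L, PDK1, PDK3, SLC2A1, PFKL, PFKP, PFKFB4 and GPI. The 8 genes that reached 2-fold in silenced cells only were HK1 and 7 enzymes, namely ALDOA, TPI1, PGK1, PGAM1, ENO1, PKM and LDHA, while MXI1 and PFKFB3 did so in induced cells only.

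**Figure D3:**
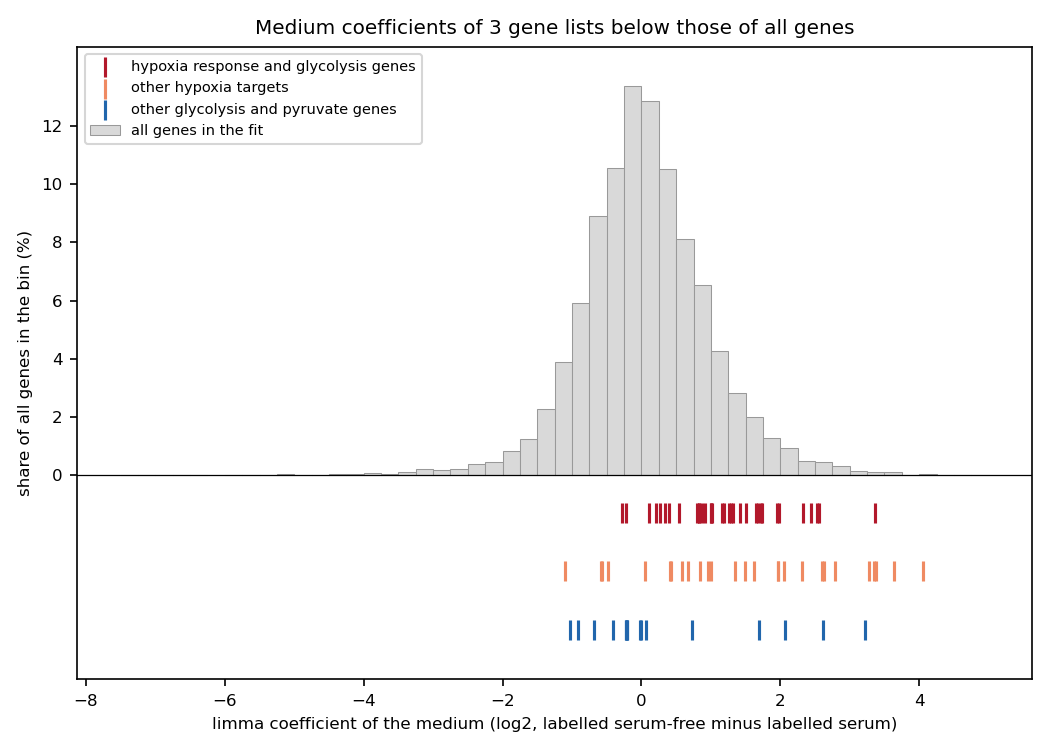
Bars give the share of all 12103 genes in each bin of the limma coefficient of the medium (log2, labelled serum-free minus labelled serum), and ticks below give the coefficients of single genes in 3 lists. The hypoxia response and glycolysis genes have a median of 1.17, other hypoxia targets 1.50 and other glycolysis and pyruvate genes -0.11, against 0.02 over all genes.

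Further genes of the pathway were read from lists. Of 29 other hypoxia targets, 27 entered the fit, and 16 rose in the arrays labelled serum-free and 1 fell, with a median coefficient of 1.50. Of all genes in the fit, 15.4% rose and 12.7% fell. IGFBP3, for a binding protein of insulin-like growth factors, rose 16.6-fold, the glycogen synthase gene GYS1 12.5-fold, the secreted glycoprotein gene STC2 10.4-fold and the lipid droplet gene HILPDA 10.2-fold (limma adjusted p 0.0167, 0.0167, 0.019 and 0.0167). RORA, a nuclear receptor gene, fell 2.15-fold (adjusted p 0.0366). VEGFA, the best known angiogenic target of the factors, did not rise: it read 2881 and 2830 in induced and silenced cells labelled serum-free, against 4873 and 3763 in induced and silenced cells labelled serum (coefficient -0.59, SE 0.20, adjusted p 0.0979).

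Of 7 other genes of oxygen sensing, 5 entered the fit and 0 were called in the limma fit, with coefficients of 0.40 for ARNT, the partner subunit, 0.31 for VHL, which recognises hydroxylated alpha subunits, and 0.01 for HIF1AN, an asparagine hydroxylase gene. The partner subunit gene ARNT2 had the largest of the 5, at -0.87 (adjusted p 0.0528), and CITED2, for an inhibitor of the factors, had -0.25. Of 27 other glycolysis and pyruvate genes, 16 entered the fit, 4 rose and 2 fell, where 15.4% of all genes rose and 12.7% fell. Isoform genes known to be raised by hypoxia were among those that rose: ENO2 read 2673 and 2271 in induced and silenced cells labelled serum-free, against 249.7 and 282 in induced and silenced cells labelled serum (9.28-fold, limma adjusted p 0.0167), and ALDOC rose 4.20-fold (adjusted p 0.0193). The pyruvate carboxylase gene PC read 68.8 and 69 in induced and silenced cells labelled serum-free, against 11.7 in induced and 10.8, under the floor, in silenced cells labelled serum (limma adjusted p 0.0167). LDHC, a lactate dehydrogenase gene best known from testis, read 41.5 and 51.5 in induced and silenced cells labelled serum-free, against 8.1, under the floor, in induced and 18.9 in silenced cells labelled serum (adjusted p 0.0215). Both were dim genes that rose. PDP1, for the phosphatase that opposes the PDK enzymes, fell 2.04-fold (adjusted p 0.0339), and TIGAR, a p53 target that restrains glycolysis, fell 1.89-fold (adjusted p 0.0357). LDHB, the partner of LDHA in the lactate dehydrogenase tetramer and also named after its values were seen, read between 4913 and 5137 on all 4 arrays.

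Many of the genes have several probe sets, 82 in all, which read the same arrays and so are not replicates. Of 74 that reached the median signal in both pairs of media, 66 were above 0 in both and 36 were 2-fold higher in both. Read by brightest probe set, 9.25% of all genes in the fit were 2-fold higher in both, and no share over all probe sets was counted. Nor was a share above 0 in both pairs, so the counts above 0 are not shown to be particular to these genes. For 15 of 19 genes with several such probe sets, all of them were above 0 in both pairs, again with no share over all genes taken. The 4 others were EPAS1, SLC2A3, PDK3 and CA12, the last with 1 dim probe set at -1.04 in induced cells. Size was less stable than direction. A dim probe set of ENO1 read 225.6 and 221.2 in induced and silenced cells labelled serum-free, against 19.3 and 21 in induced and silenced cells labelled serum, a log2 difference of 3.55 in induced and 3.40 in silenced cells, where the brightest gave 0.69 and 1.63. For PGK1 the brightest of 6 probe sets gave the smallest differences of the 6, 0.58 in induced and 1.26 in silenced cells, and the largest were 1.82 and 2.41.

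**Figure D4:**
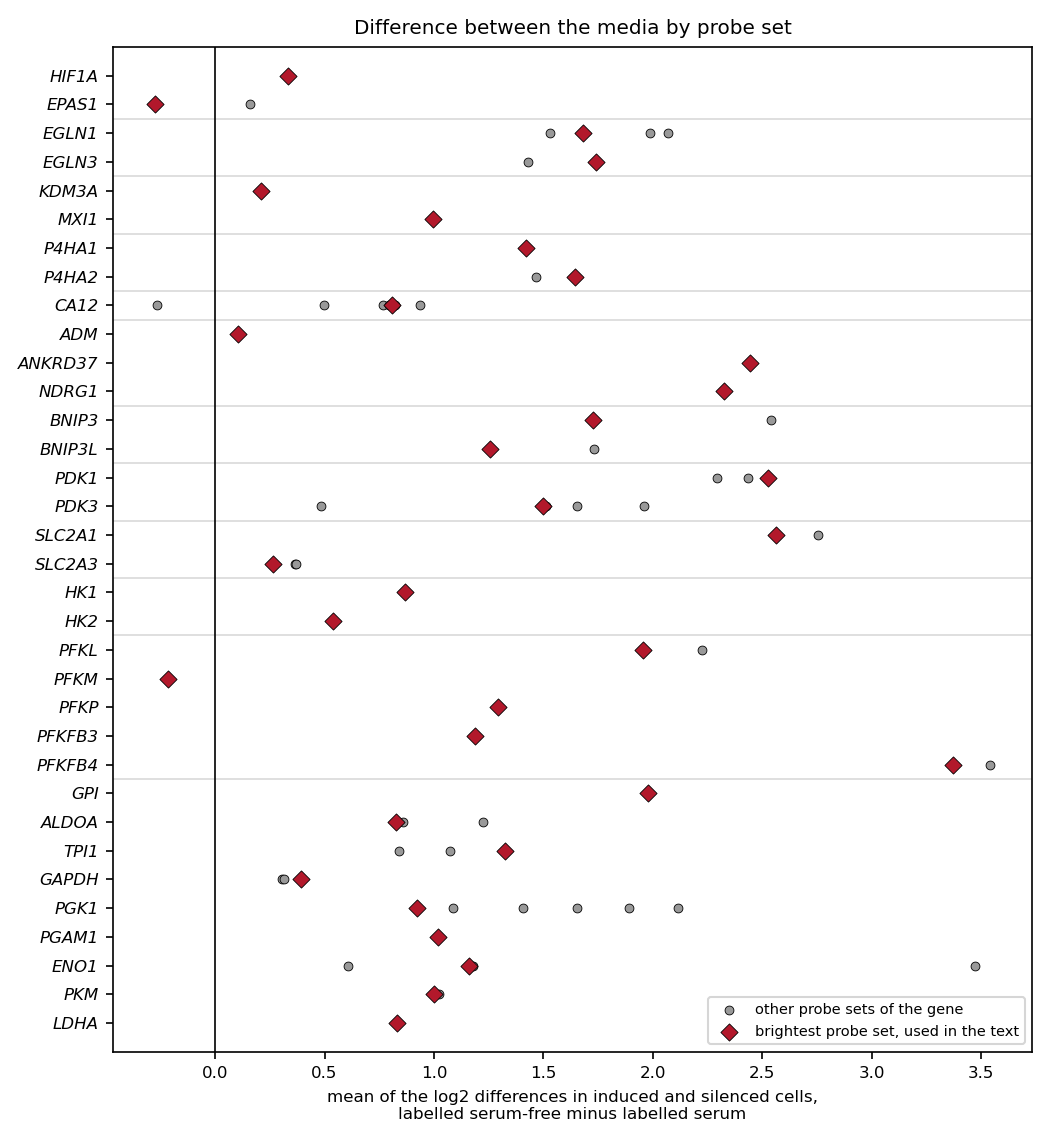
Mean of the log2 differences between the media (labelled serum-free minus labelled serum) over induced and silenced cells, for each probe set measured in both pairs: red diamonds for the brightest probe set of a gene, grey circles for its others. The grey circle of ENO1 far to the right, a probe set at 3.55 in induced and 3.40 in silenced cells, and the grey circles of PGK1, all to the right of its diamond, show where the choice of probe set sets the size.

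DACH1 induction went with smaller differences in these genes. In the limma fit 0 of the 34 genes passed for DACH1 state, as 0 of 12103 genes did (1 with a trend in the variance prior), and 0 of the 34 had an unadjusted p under 0.05 against 585 of all genes. The smallest unadjusted p among them was 0.0744, for NDRG1 (coefficient 1.09). With 1 array a condition, the 2 media are therefore given as single pairs, with no test.

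In the arrays labelled serum, 2 genes were at least 2-fold higher in induced than in silenced cells and 0 lower, of 33 compared, where 2.91% of all genes were higher and 4.77% lower, and of genes with a signal of 200 or more 2.14% and 3.49%. NDRG1 read 1168 in induced and 311.9 in silenced cells, 3.74-fold higher, and SLC2A3 read 999.1 in induced and 440.8 in silenced cells, 2.27-fold higher. The 3 probe sets of SLC2A3 gave log2 differences from 0.82 to 1.18. SLC2A1 was 1.90-fold higher, at 173.3 in induced and 91.1 in silenced cells, and HK1 1.69-fold, at 1359 and 805.1. ADM was 1.91-fold lower, at 2786 in induced and 5324 in silenced cells. The 9 glycolytic enzyme genes from GPI to LDHA were all higher in induced cells, by 0.20 to 0.69 on the log2 scale, each less than 2-fold. Among all genes with a signal of 4000 or more on an array, 156 of 235 were higher too, with a median of 0.07. So were all 18 genes of G2 and M phase, and 6178 of 12190 genes over all. PFKFB3, PFKM and HK2 lay below 0, at -0.49, -0.38 and -0.42, as did a dim probe set of ENO1 at -0.12.

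In the arrays labelled serum-free, 0 of 34 genes were 2-fold different between induced and silenced cells, where 1.02% of all genes were higher and 2.72% lower, and of genes with a signal of 200 or more 0.0839% and 0.101%. Log2 differences ran from -0.35 for PFKL to 0.29 for PFKM, and SLC2A1 was 1.07-fold lower, at 716.5 in induced and 767.6 in silenced cells, and NDRG1 1.20-fold higher, at 3313 and 2754. The 9 enzyme genes were all lower in induced cells, at -0.29 to -0.12 on the log2 scale. Of all genes with a signal of 4000 or more, 195 of 235 were lower too, with a median of -0.12. Among the 18 genes of G2 and M phase 16 were lower, and 6375 of 12659 genes over all. With median scaling the 9 enzymes ran from -0.11 to 0.06, with 2 above 0, and 24 of the 34 genes were above 0 in place of 8.

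**Figure D5:**
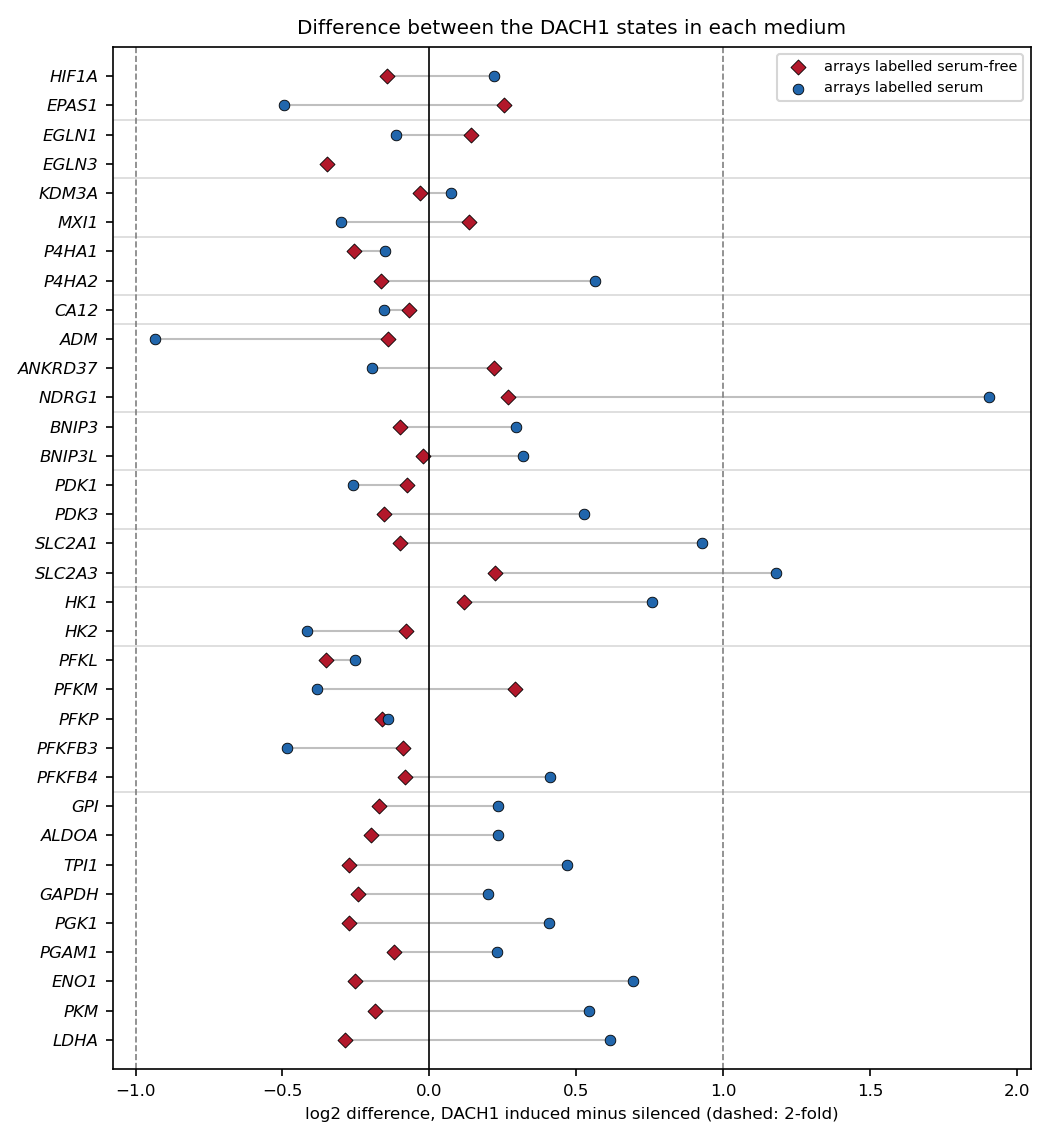
Log2 difference between the DACH1 states, induced minus silenced, for each gene in the arrays labelled serum-free (diamonds) and labelled serum (circles), with 2-fold marked by dashed lines. All diamonds lie between -0.35 and 0.29, and NDRG1 and SLC2A3 are the only circles past 2-fold; EGLN3 has no circle because both of its arrays labelled serum lay under the floor.

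Set against the arrays labelled serum, the arrays labelled serum-free had a DACH1 difference at least 1 lower on the log2 scale for 2 of the 34 genes, NDRG1 (-1.64) and SLC2A1 (-1.03), and at least 1 higher for 0. Of all genes 4.76% were lower and 5.40% higher by that amount, so 2 of 34 is close to the share over all genes. SLC2A3 (-0.96), ENO1 (-0.95) and LDHA (-0.90) came next, and ADM (0.79) and EPAS1 (0.75) were highest. The same numbers give how far the medium difference depended on DACH1 state: it was larger in silenced than in induced cells for 24 of 34 genes. For that count no share over all genes was taken, so it is not shown to be particular to these genes. The enzyme genes from GPI to LDHA were all among the 24. Bright genes in general moved the same way, and so did the genes of G2 and M phase. The latter had medians of 0.33 labelled serum and -0.19 labelled serum-free. With a signal of 4000 or more, the median DACH1 difference was 0.07 labelled serum and -0.12 labelled serum-free. Over all genes it was 0.01 and -0.002. No array is left to give these differences of differences an error. DACH1 itself read lower in the arrays labelled serum-free, at 875.1 against 4431 in induced and 32.5 against 126 in silenced cells. The DACH1 level of a state was therefore not the same in both media, and its part in these differences was not tested.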

How the data were processed

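Values are the signal intensity per probe set and array that the authors deposited, linear and, per the submitters' processing notes, from MAS5. The sources used here give no MAS5 version, target or chip definition. The mean signal trimmed by 2% at each end was 99.63 to 99.65 on every array. The platform annotation named 1 gene for 41091 of 54613 probe sets, several for 1801 and none for 11721, and symbols were updated through Entrez identifiers. The brightest 1-gene probe set stood for a gene. Signals below the 40th percentile (10.9) took that value, then log2 was applied. Pairs used genes with 1 array, and the limma fit genes with 2 arrays, at the median of all signals (17.2) or above. The fit (lmFit and eBayes, additive terms, Benjamini-Hochberg over all genes) was tested on simulated data. Single pairs were counted at 2-fold, with no test. Any of the 34 genes could be named, and from each other list up to 4 genes per direction, by size of the medium coefficient. The members and lists were chosen with earlier results of these data known. The labels mention no repeated cultures, so the p-values reflect how these 4 arrays vary, which may be technical. The backgrounds at signals of 200 and 4000 were added after seeing the data. Promoter sequences are from RefSeq. Statistics used limma 3.58.1 in R 4.3.3, and tables and plots used Python 3.11.15 with numpy 2.4.6, pandas 2.3.3 and matplotlib 3.10.9.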

Additional observations from a re-analysis of the deposited data

How the results depend on the processing

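The results were recomputed with quantile normalization, with median scaling, without a floor, with the floor as a pseudocount instead, without a filter, with all arrays required to reach the median, with a floor of 50 and 1 array of a pair or 2 of 4 at 100, with all probe sets averaged, without the probe sets named _x_at or _s_at, and with a trend in the variance prior. Among the counts, these moved by over 1.5 times. With no filter the limma count of genes higher with the medium was 0, against 15 to 26 under the other settings, with 0 lower under every setting. Without _x_at and _s_at probe sets, which leaves 21 genes, 14 were 2-fold higher with the medium in silenced cells, 0 were higher with DACH1 labelled serum and 1 labelled serum-free (a dim probe set of TPI1). Quantile normalization gave 1 gene 2-fold lower with DACH1 labelled serum, ADM. The count of genes whose DACH1 difference was at least 1 lower labelled serum-free, for which the alternatives were added after seeing the data, became 1 with median scaling, with the pseudocount and with the mean of all probe sets, and 0 without _x_at and _s_at probe sets. The median medium coefficient stayed between 1.00 and 1.29. Median scaling shifted the median of all genes by -0.17 for the medium and 0.12 for DACH1 state, and by 0.18 for DACH1 labelled serum-free, where the median of the 34 genes turned from -0.11 to 0.07. With it, higher calls made up 40% of all genes' calls in the medium fit, against 54.8% as reported, 38.3% against 55.5% in silenced cells, 46.9% against 58% in induced cells, and for DACH1 labelled serum-free 49.7% against 27.3% (41.6% with quantile normalization). Of the 34 genes, 31 were above 0 with the medium in induced cells under median scaling, against 33 as reported. No called difference of a single gene changed sign under any of these settings. With an array left out, the medium coefficient is the difference of 1 remaining pair and has no test. Every gene called for the medium by limma was already above 0 in both pairs, so leaving out an array could not have changed its sign. No paired analysis was possible because the labels carry no replicate numbers, other than the reported fit itself, which compares the media within DACH1 state. Signals under the floor limit EGLN3 most. The cause of these shifts was not tested.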
